A study of Homo sapiens with 4 samples.

Results

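A set of 9 genes of major histocompatibility complex (MHC) class I antigen presentation and of the PD-L1 checkpoint were followed through 4 RNA-sequencing libraries of MDA-MB-231, an established human triple-negative breast cancer cell line. They were taken by symbol, as HLA-B, HLA-C, HLA-E, B2M, TAP1, TAP2, TAPBP, NLRC5 and CD274, and all 9 were found among 25133 rows with a gene symbol. The cells had been infected with lentivirus carrying a scrambled short hairpin (shSCR, genotype WT in the labels, 2 libraries) or a hairpin against JARID2 (shJARID2, JARID2 knockdown, 2 libraries). Both groups therefore shared the infection. The labels name 1 hairpin treatment per group. Separate cultures are not stated for the 2 libraries, and p-values therefore reflect the variation among these libraries, which may be technical.

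MHC class I molecules carry peptides from inside the cell to its surface, where cytotoxic T cells read them. A polymorphic heavy chain (such as HLA-B, HLA-C or the non-classical HLA-E) pairs with beta-2-microglobulin, encoded by B2M. Peptides cut by the proteasome are pumped into the endoplasmic reticulum by the TAP1-TAP2 transporter and loaded with the help of tapasin, encoded by TAPBP. NLRC5 is the transactivator that drives class I genes together with factors bound at their promoters, and interferon gamma induces the whole set. CD274 encodes PD-L1, a ligand that restrains T cells through PD-1 and is also induced by interferon gamma. JARID2 is an accessory subunit of Polycomb repressive complex 2, which has been found to hold class I presentation genes silent in some tumours.

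Levels are FPKM, that is fragments counted for a gene per kilobase of its length and scaled to library size. From the steps between low FPKM the depth was about 15500000 (shSCR replicate 1), 16200000 (shSCR replicate 2), 12900000 (shJARID2 replicate 1) and 12800000 reads (shJARID2 replicate 2). JARID2 itself was at 10.8 and 10.8 FPKM in the shSCR controls and 3.88 and 3.91 in shJARID2, so the knockdown was present in both libraries. Markers of the line gave a mixed check. CD44 (68.9 to 79.7 FPKM) and CAV1 (99.0 to 204.9) were high, and ESR1, PGR and CDH1 stayed at or below 0.203 FPKM. ERBB2, low in this line by its subtype, was at 6.58 to 15.7 FPKM, and VIM, the mesenchymal filament gene that this line is known to express strongly, was listed at 3.54, 4.20, 2.10 and 2.77 FPKM (in the order shSCR 1, shSCR 2, shJARID2 1, shJARID2 2). A low FPKM in these files is therefore not evidence of low expression. Leukocyte markers were near 0: the 8 found summed to 0.369 to 0.612 FPKM per library, and PTPRC did not exceed 0.0493. By the same limit, these low values do not show that leukocytes were absent. The 7 stromal and endothelial markers summed to 1.69 and 1.94 FPKM in the shSCR controls and 0.856 and 0.778 in shJARID2, and their part in the results was not tested.

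TAP1 was the one tested member that fell under every setting tried. HLA-E and TAPBP were lower as measured, CD274 was higher, and B2M, TAP2 and NLRC5 did not pass the test. HLA-B and HLA-C lay below the level needed for testing, a mean of 1 FPKM over the 4 libraries. Of the 7 members tested, 1 was therefore called higher and 3 lower in shJARID2 (limma on log2(FPKM + 1), Benjamini-Hochberg adjusted p below 0.05 over 12455 genes). Among all tested genes 28.0% were called higher and 31.6% lower, so the members' share is close to the background. In bulk RNA, fewer cells expressing a gene and less RNA per cell cannot be told apart. Groups did not overlap for 6 of the 7 members, against 82.9% of all tested genes.

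**Figure D1:**
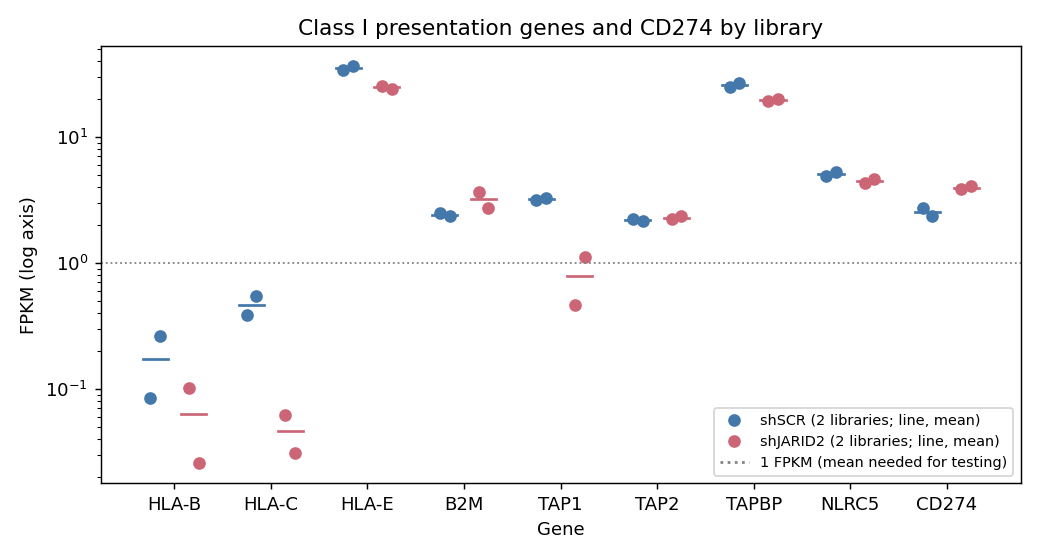
FPKM of the 9 genes in each library on a log axis, with shSCR libraries in blue, shJARID2 libraries in red, and a line at the mean of each pair. TAP1 dropped from about 3.22 to 0.786 FPKM, HLA-E and TAPBP were the most abundant members in both groups, and HLA-B and HLA-C lay under the dotted line at 1 FPKM in every library.

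Fold changes across the transcriptome followed the GC content of transcripts, which bears on every member. When tested genes were sorted by GC content into 10 groups of equal size, the median log2 fold change was 0.46 in the group with the lowest content (median 38.0%) and -0.80 in that with the highest (median 63.6%). HLA-E (64.7% GC) and TAPBP (63.0%) belong to the latter, whereas B2M (40.5%) and CD274 (42.5%) lie near the other end. For this reason changes of the tested members are also given after the GC trend of each library was subtracted. With that step 4 members were called higher and 1 lower, against 22.7% and 21.5% of all 12044 genes with a GC value. Whether the GC trend arose in the cells or in the libraries was not tested.

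**Figure D2:**
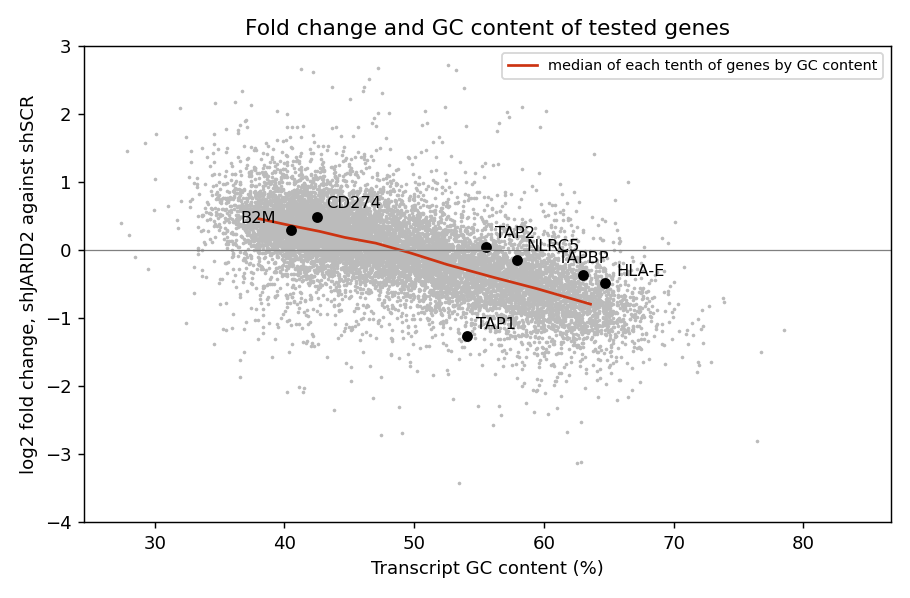
Log2 fold change (shJARID2 against shSCR) of each tested gene against the median GC content of its transcripts, with the 7 tested members in black and the median of each of 10 equal groups of genes by GC content in red. The red line runs from 0.46 down to -0.80; TAP1 lies far below it, while HLA-E, TAPBP, NLRC5 and TAP2 lie above it.

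Among the heavy chains, HLA-E was the only member with a substantial level. This gene presents leader peptides of other class I molecules to natural killer cells. Its position is chromosome 6, 30489467 to 30494205, + strand (GRCh38, GENCODE 29). HLA-E measured 33.8 and 36.7 FPKM in the shSCR controls and 25.6 and 24.2 FPKM in shJARID2, a mean of 35.3 ± 2.05 against 24.9 ± 1.02 (SD, n = 2 libraries each). Both knockdown libraries were below both controls. The log2 fold change was -0.49 (SE 0.062, limma adjusted p = 0.00411), which was smaller than the median of -0.80 among genes of like GC content. After GC correction the direction turned, to 0.32 (limma adjusted p = 0.0219), so no direction independent of the GC trend can be given for HLA-E.

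HLA-B and HLA-C, the classical heavy chains that present peptides to T cells, were barely counted. HLA-C (chromosome 6, 31268749 to 31272130, - strand) was at 0.386 and 0.542 FPKM in the shSCR controls and at 0.0616 and 0.0312 in shJARID2. These values correspond to 15 and 22 reads in shSCR and to 2 and 1 in shJARID2. Per depth the ratio of summed reads was 0.10, with an exact 95% interval of 0.0197 to 0.316 that covers counting error only. HLA-C entered a test only with no filter on low values, where the log2 fold change was -0.48 (SE 0.076, limma adjusted p = 0.0245). The 1 added to each FPKM shrinks that value, so its size is not comparable with the read ratio. HLA-C has 61.4% GC, between groups of tested genes with medians of 59.45% and 63.59% GC. Their median log2 fold changes were -0.567 and -0.795. No GC-corrected value was computed for HLA-C, so no change apart from the GC trend can be given.

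HLA-B (chromosome 6, 31269491 to 31357188, - strand) gave only 4 and 13 reads in shSCR and 4 and 1 in shJARID2, that is 0.0846, 0.263, 0.101 and 0.0256 FPKM. The groups overlapped, and the interval of the read ratio (0.36, from 0.105 to 1.02) included no change. With no filter HLA-B did not pass (log2 fold change -0.14, limma adjusted p = 0.413). The classical genes resemble each other: 2.72% of the 50-base windows of HLA-B transcripts and 5.38% of those of HLA-C also occur in transcripts of other genes. For HLA-E the share was 4.34%. Exons of other genes cover 18.9% of the exon bases of HLA-B, 1.40% of those of HLA-C and none of those of HLA-E. The annotated span of HLA-B also runs into that of HLA-C on the same strand. How the counting treated reads with several matches, or reads that differ from the reference alleles, is not given in the sources used here, so levels and changes of these heavy chains are uncertain.

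B2M, the light chain shared by all class I molecules, did not pass the test. Its position is chromosome 15, 44711487 to 44718877, + strand. B2M was at 2.49 and 2.34 FPKM in the shSCR controls and at 3.68 and 2.74 in shJARID2. Although both knockdown values were higher, shJARID2 replicate 1 stood well above replicate 2. The log2 fold change was 0.29 (95% interval -0.081 to 0.667, limma adjusted p = 0.135), and -0.044 after GC correction. Without shJARID2 replicate 2 the gene was called (0.45, limma adjusted p = 0.0392). B2M is a gene that nearly all nucleated cells express at high levels, yet it ranked above only 24.0% of tested genes here. Its FPKM did not fall on whole reads with the GENCODE 29 exon length, so no reads are given for it.

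The subunits of the transporter parted. TAP1 (chromosome 6, 32845209 to 32853978, - strand) measured 3.17 and 3.28 FPKM in shSCR, or 236 and 255 reads. In shJARID2 it measured 0.466 and 1.11 FPKM, or 29 and 68 reads. Both knockdown libraries lay far under the controls, and they differed from each other by more than the controls did (0.786 ± 0.452 against 3.22 ± 0.0774, SD, n = 2 libraries each). The log2 fold change was -1.27 (95% interval -1.82 to -0.72, limma adjusted p = 0.00766), where genes of like GC content had a median of -0.21. After GC correction TAP1 remained lower, at -0.98 (limma adjusted p = 0.0153). It was called lower in all 14 alternatives (-2.14 to -0.98, adjusted p up to 0.0486).

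TAP2, the partner with which TAP1 forms the peptide pump, lies near it on chromosome 6 (32821833 to 32838780, - strand). TAP2 was at 2.24, 2.14, 2.22 and 2.35 FPKM in the same library order, with overlapping groups. The log2 fold change of 0.04 had a 95% interval of -0.214 to 0.299, which does not reach the change of TAP1. GC correction gave 0.40 (limma adjusted p = 0.0263). Exons of other genes cover 32.3% of the exon bases of TAP2 and 9.49% of those of TAP1, and 31.3% of the 50-base windows of TAP2 occur in a second annotated gene, AL669918.1, so the value of TAP2 is the less certain one.

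TAPBP encodes tapasin, which bridges class I molecules to the transporter. Its position is chromosome 6, 33299694 to 33314387, - strand. TAPBP measured 24.7 and 26.8 FPKM in the shSCR controls and 19.2 and 20.1 in shJARID2 (25.8 ± 1.48 against 19.7 ± 0.636, SD, n = 2 libraries each), again without overlap. The log2 fold change of -0.37 (SE 0.060, limma adjusted p = 0.00778) turned to 0.38 after GC correction (limma adjusted p = 0.0041). As for HLA-E, the direction therefore depends on whether the GC trend is kept.

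NLRC5 (chromosome 16, 56989485 to 57083531, + strand) was expressed in all libraries, at 4.87 and 5.31 FPKM in the shSCR controls and 4.35 and 4.62 in shJARID2. The knockdown values were lower by less than the test required (log2 fold change -0.15, 95% interval -0.366 to 0.062, limma adjusted p = 0.166). After GC correction NLRC5 was called higher (0.35, limma adjusted p = 0.0163). In both forms its change was smaller in size than that of TAP1, a gene it is known to regulate, although this difference was not tested.

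CD274, the PD-L1 gene, was the only member called higher as measured. Its position is chromosome 9, 5450503 to 5470566, + strand, and none of its exon bases or 50-base windows are shared with another annotated gene. CD274 measured 2.72 and 2.35 FPKM in shSCR (173 and 156 reads) and 3.83 and 4.07 in shJARID2 (204 and 214 reads). Both knockdown libraries were above both controls, with a ratio of means of 1.56. The log2 fold change was 0.49 (95% interval 0.227 to 0.751, limma adjusted p = 0.0137), against a median of 0.28 among genes of like GC content. The call was lost after GC correction (0.20, limma adjusted p = 0.139), without shSCR replicate 2 (0.41, adjusted p = 0.0782) and without shJARID2 replicate 2 (0.46, adjusted p = 0.052). Genes with a mean of at least 5 FPKM were compared with CD274 by deviations of log2(FPKM + 1) from each gene's own mean. The 3 most alike over the 4 libraries were CTAGE5, FAM161A and TSPAN6, at Euclidean distances of 0.0185, 0.0195 and 0.0248 among 7331 compared. Likeness over 4 libraries reflects little more than a similar difference between the groups. Those nearest to HLA-B were AC008038.1, PARP6 and HTRA2, at 0.0368, 0.0543 and 0.0560. The HLA-B profile rests on few reads and is flattened by the 1 added to each FPKM.

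**Figure D3:**
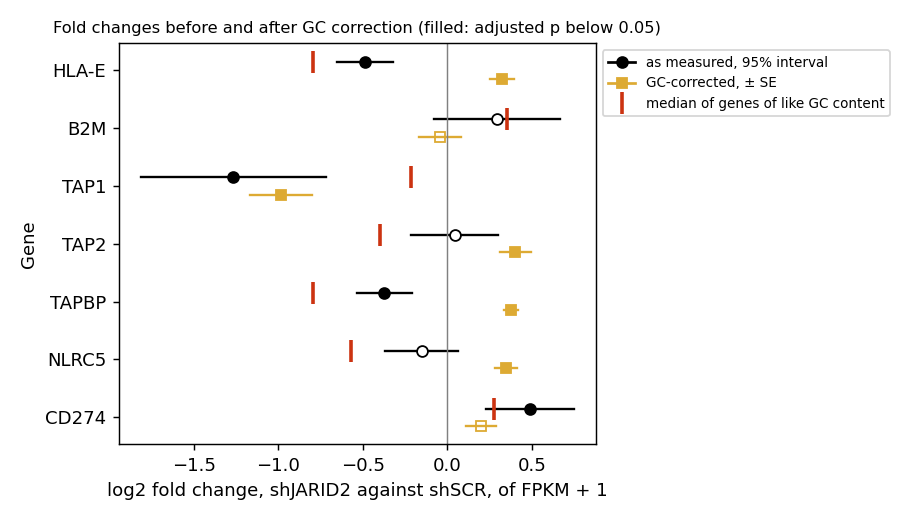
Log2 fold changes of the 7 tested members, as measured (black circles with 95% intervals) and after GC correction (yellow squares with SE), with filled symbols for an adjusted p below 0.05 and red ticks at the median of genes of like GC content. TAP1 is lower in both forms (-1.27 and -0.98), HLA-E and TAPBP change sides, and CD274 is filled only as measured.

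The DNA just upstream of the RefSeq start is shown for 3 called members. They were chosen because their measured changes ran in different directions while they share interferon-type elements. The 250 bases before the RefSeq start (GRCh38.p14) are given 5′ to 3′ on the strand of the gene (7 of the 9 members matched the RefSeq table). Capitals mark matches to the core of an interferon-stimulated response element, written here as GAAA, any 2 bases and GAAA, or to the NF-kappaB consensus, each searched on both strands. The regions are chr6:32853705-32853954 (TAP1, - strand), chr6:33314079-33314328 (TAPBP, - strand) and chr9:5450292-5450541 (CD274, + strand).
TAP1: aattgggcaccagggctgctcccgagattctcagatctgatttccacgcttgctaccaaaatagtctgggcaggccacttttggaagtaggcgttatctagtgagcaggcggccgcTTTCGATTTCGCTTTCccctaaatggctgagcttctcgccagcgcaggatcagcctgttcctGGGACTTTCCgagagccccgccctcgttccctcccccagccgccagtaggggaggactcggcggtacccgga
TAPBP: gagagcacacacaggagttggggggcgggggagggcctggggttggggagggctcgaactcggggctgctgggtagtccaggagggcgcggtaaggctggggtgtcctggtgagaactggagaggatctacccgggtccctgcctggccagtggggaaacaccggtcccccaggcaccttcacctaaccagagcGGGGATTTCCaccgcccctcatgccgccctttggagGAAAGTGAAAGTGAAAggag
CD274: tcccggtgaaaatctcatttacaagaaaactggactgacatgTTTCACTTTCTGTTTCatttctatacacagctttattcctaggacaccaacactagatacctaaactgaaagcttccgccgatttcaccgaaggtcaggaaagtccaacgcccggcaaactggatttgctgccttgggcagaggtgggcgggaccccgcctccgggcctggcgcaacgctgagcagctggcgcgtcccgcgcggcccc

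Each of these regions held 2 overlapping matches to the GAAA pair, a motif found in 3.02% of 35116 RefSeq start regions of the same length. In TAPBP the matches began 20 and 14 bases before the start, in TAP1 134 and 128 bases, and in CD274 208 and 202 bases. The NF-kappaB consensus, found in 5.21% of all regions, occurred in TAP1 and TAPBP but not in this window of CD274, and it also occurred in the windows of HLA-B, HLA-C and B2M. Start regions of B2M (2 matches) and TAP2 (1 match), members that did not pass the test as measured, also held the GAAA pair. CCAAT, which is bound by NF-Y and found in 32.0% of all regions, occurred in the windows of HLA-B, HLA-C, B2M and TAP1. TGACG, the core of the site for CREB and ATF1 (21.2% of all regions), occurred in those of HLA-B, HLA-C, B2M and TAP2. Matches are descriptions of the letters and not evidence of binding.

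Genes that supply peptides moved both ways. For this list and those below, the shares over all tested genes were 28.0% called higher and 31.6% lower as measured. After GC correction these shares were 22.7% and 21.5%. Of 13 tested genes of peptide supply, 2 rose (LNPEP and NRDC) and 5 fell. Their median log2 fold change was 0.04 against -0.02 over all tested genes. Both rises lost their call after GC correction, LNPEP going from 0.34 to -0.058 and NRDC from 0.29 to 0.094. PSMB10, a catalytic subunit of the immunoproteasome, went from 3.03 and 4.27 FPKM to 1.13 and 1.22 (-1.08, limma adjusted p = 0.0062), a call that was lost after GC correction (-0.39). PSMB9, the immunoproteasome subunit transcribed head to head with TAP1, went from 1.43 and 1.63 to 0.955 and 0.737 FPKM. Its log2 fold change of -0.46 (limma adjusted p = 0.0451) was lost when any 1 of the 4 libraries was left out (adjusted p from 0.0625 to 0.178) and after GC correction (-0.18).

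PSME2, a subunit of the PA28 proteasome activator, fell as measured (-0.47, limma adjusted p = 0.0107) and after GC correction (-0.38). The call was lost without shSCR replicate 1 (-0.46, adjusted p = 0.0628) or shSCR replicate 2 (-0.48, adjusted p = 0.0611). THOP1, a cytosolic peptidase, fell as measured (-0.86) and was at -0.07 after GC correction. BLMH completed the falls (-0.45, GC-corrected -0.50). ERAP1, which trims peptides in the endoplasmic reticulum, did not pass (0.27, limma adjusted p = 0.0553, GC-corrected -0.001). It was called higher in 3 of 14 alternatives, among them limma-voom (0.33, adjusted p = 0.00238). After GC correction 1 of the 13 was higher (PSME1, another PA28 subunit, 0.26) and 4 were lower. LNPEP, NRDC, BLMH and PSME1 were named after their values were seen.

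Loading chaperones of the endoplasmic reticulum mostly fell. Of 8 tested, 6 were lower and none higher as measured, with a median log2 fold change of -0.90 against -0.02 over all tested genes. After GC correction 6 were lower and 1 higher, with a median of -0.73. The 2 that did not pass as measured were UGGT1 (0.049, limma adjusted p = 0.412) and GANAB (-0.13, limma adjusted p = 0.0846), which after GC correction were called lower (-0.17) and higher (0.17). These 2 were named after their values were seen. PDIA3 (ERp57), the partner of tapasin in the loading complex, went from 21.1 and 19.9 FPKM to 10.1 and 10.98 (-0.90, GC-corrected -1.08, limma adjusted p = 0.00147 as measured). CALR, which encodes the chaperone calreticulin of the same complex, went from 8.73 and 10.7 to 3.98 and 4.03 FPKM (-1.09, GC-corrected -0.74, limma adjusted p = 0.00233 as measured).

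HSPA5 (BiP), a general chaperone, fell from 102.1 and 102.8 FPKM to 51.0 and 51.1 (-0.99, GC-corrected -1.15). BCAP31, which escorts class I molecules out of the endoplasmic reticulum, fell from 18.4 and 15.7 to 7.19 and 8.53 FPKM (-1.03, GC-corrected -0.71). These 4 were called lower in all 14 alternatives. CANX, the calnexin gene, fell from 133.2 and 138.9 to 72.6 and 73.2 FPKM (-0.89, GC-corrected -1.03), and TAPBPL, a tapasin-related editor, by 0.77 (-0.26 and not called after GC correction). Both were named after their values were seen. Several of these genes serve all secreted and membrane proteins, so the list is not particular to class I molecules.

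Of 8 tested class I and class I-like genes outside the members, only MICB was called as measured. MICB encodes a stress-induced ligand of the NKG2D receptor of natural killer cells. It rose from 27.6 and 28.1 FPKM to 53.6 and 50.6 (log2 fold change 0.88, GC-corrected 0.94, limma adjusted p = 0.0014 as measured) and was called higher in all 14 alternatives. Of its 50-base windows, 2.86% occur in other genes, chiefly its paralog MICA. MICA measured 15.4, 17.7, 20.8 and 19.0 FPKM in the same library order and was named after its values were seen. It did not pass as measured (0.25, limma adjusted p = 0.0674) but did after GC correction (0.53). The median of the list was 0.11. HLA-F lay below the filter, at 0.249 to 0.360 FPKM.

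Of 12 tested factors known to act at class I promoters, 3 were called higher and 3 lower, with a median of -0.20. The counts as measured are close to the background of 28.0% higher and 31.6% lower over all tested genes. After GC correction 2 were higher and 4 lower. Within the RFX complex, RFXAP rose from 3.95 and 3.86 to 8.84 and 6.98 FPKM (0.85, GC-corrected 0.43), whereas RFXANK fell from 8.20 and 8.17 to 3.12 and 3.78 FPKM (-1.05, GC-corrected -0.43). All 14 alternatives called these 2 in the same directions. RFX5, the third subunit, did not pass (-0.23, limma adjusted p = 0.07, GC-corrected -0.084). It was called lower in 2 of 14 alternatives, among them limma-voom (-0.22, adjusted p = 0.0206). USF1, an E-box factor, fell (-0.92, GC-corrected -0.62). NFYB, a subunit of the CCAAT-binding factor, rose as measured (0.44), a call that ended with GC correction (0.10), without shSCR replicate 1, shSCR replicate 2 or shJARID2 replicate 1 (adjusted p from 0.0688 to 0.0981). IRF1 is an interferon-induced activator of TAP1, PSMB9 and CD274. It was at 2.28 and 2.24 FPKM in the shSCR controls and 1.64 and 1.63 in shJARID2 (-0.31, limma adjusted p = 0.053, GC-corrected 0.11). IRF1 thus narrowly missed the threshold, and 2 of 14 alternatives called it lower. These were limma-voom on recovered reads (-0.44, adjusted p = 0.00756) and the filter of at least 1 FPKM in 2 libraries (limma adjusted p = 0.0468).

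In interferon gamma receptor signalling, 3 of 7 tested genes rose as measured. The receptor gene IFNGR2 rose from 9.50 and 8.70 to 15.4 and 13.8 FPKM (log2 fold change 0.62, GC-corrected 0.78, limma adjusted p = 0.00408 as measured) and was called higher in all 14 alternatives. IFNGR1, the other receptor gene, rose by 0.60 as measured (0.24 and not called after GC correction). PTPN2, a phosphatase that restrains this pathway, rose by 0.55 (GC-corrected 0.32). JAK2, the receptor-bound kinase, did not pass (0.18, GC-corrected -0.15, limma adjusted p = 0.295 as measured). STAT2 did not pass as measured (0.11, limma adjusted p = 0.173) and was called higher after GC correction (0.27, limma adjusted p = 0.0146).

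Other ligands that immune cells read on tumour cells were mixed too. Of 8 tested, 3 rose and 4 fell as measured (median -0.51), and 1 rose and 2 fell after GC correction (median 0.11). PDCD1LG2, which encodes PD-L2 and neighbours CD274, went from 2.35 and 2.27 to 3.36 and 3.24 FPKM (0.38, limma adjusted p = 0.0203). Like that of CD274, this call was lost after GC correction (0.08). It was also lost when any 1 library was left out (adjusted p from 0.0523 to 0.108). NECTIN2 (-1.04, GC-corrected -0.40) and PVR (-0.72, GC-corrected -0.29), ligands of the DNAM-1 and TIGIT receptors, fell in both forms. CD58, an adhesion ligand of T cells, rose from 8.50 and 9.49 to 20.9 and 17.0 FPKM (0.99, GC-corrected 0.59). VSIR, which encodes the checkpoint protein VISTA, fell as measured (-0.61), a call that ended with GC correction (-0.011), without shSCR replicate 1 (adjusted p = 0.0506) or shSCR replicate 2 (0.0545).

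Of 6 genes that act on the PD-L1 protein, 2 rose and 2 fell as measured (median -0.02), and 2 (HIP1R and SPOP) were called higher and none lower after GC correction. CMTM6 keeps PD-L1 at the cell surface. It was at 13.7 and 14.1 FPKM in the shSCR controls and 16.7 and 14.97 in shJARID2 and did not pass (0.18, limma adjusted p = 0.0896, GC-corrected -0.20). CMTM6 was called higher in 2 of 14 alternatives, among them limma-voom (0.21, adjusted p = 0.0241). STUB1, a ubiquitin ligase, fell as measured (-0.99), a call that ended with GC correction (-0.17). HIP1R, which sends PD-L1 to lysosomes, fell as measured (-0.33) and rose after GC correction (0.36), and its call was lost without shSCR replicate 1, shSCR replicate 2 or shJARID2 replicate 1 (adjusted p from 0.078 to 0.143). The rises of COPS5, which removes ubiquitin from PD-L1 (0.32, GC-corrected 0.20), and SPOP, a ubiquitin ligase adaptor (0.21, GC-corrected 0.18), were each lost when single libraries were left out (adjusted p up to 0.115 and 0.165). That of COPS5 was also lost after GC correction (limma adjusted p = 0.0781). Class II genes, markers of professional antigen-presenting cells, were near 0, with 1 of 9 tested (HLA-DMA, not called) and CD74 at no more than 0.0203 FPKM. Because a low FPKM here is not evidence of low expression, the absence of such cells is not shown.

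**Figure D4:**
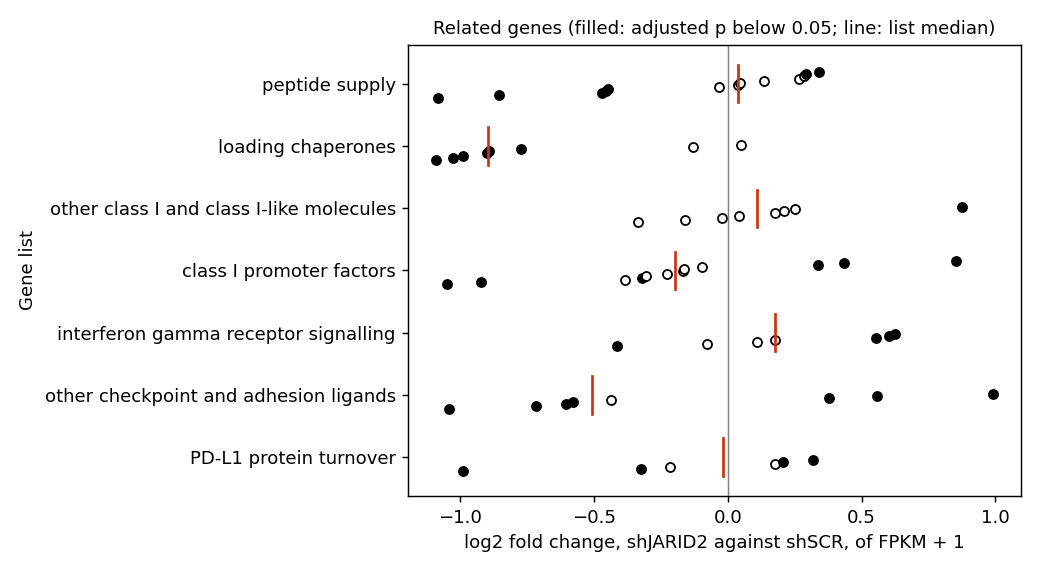
Log2 fold changes (shJARID2 against shSCR, as measured) of the tested genes of 7 related lists, 1 symbol per gene, filled for an adjusted p below 0.05, with a red line at the median of each list. Loading chaperones lie furthest to the left, with 6 of 8 filled below 0, while the other lists hold filled symbols on both sides or, for class I-like molecules, MICB alone.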

How the data were processed

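RNA was sequenced from 2 shSCR and 2 shJARID2 libraries, grouped by their labels. Each library has a deposited file of 85553 rows holding FPKM computed by the authors, as its header states. The submitters' processing notes name Trimmomatic, HISAT2, SAMtools and featureCounts. Versions, settings, genome build, annotation and use of strand are not given in the sources read here. The 9 members and the gene lists were chosen with earlier results of these data known.

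The 12455 symbol-bearing rows that averaged 1 FPKM or more entered limma (version 3.58.1, R 4.3.3) as log2(FPKM + 1), allowing a trended prior variance (2 residual and 2.36 prior degrees of freedom), and p-values were adjusted by Benjamini-Hochberg. Fold changes on this scale understate the change of low genes. Exon lengths, coordinates and GC content (median over transcripts) came from GENCODE release 29. Times that length, values up to 20 reads lay within 0.05 of a whole number in 95.8% to 96.3% of cases per library, which gave the depths and reads per gene. Replicates differed by more than sampling noise (chi-square per degree of freedom 2.95 and 3.44). GC correction subtracted, per library, a loess smooth (span 0.3, degree 2) of deviations from the gene mean on GC content, for 12044 genes. Steps were tried on simulated data with and without a GC trend and GC correction, and the outcome is not reported here.

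All members were named. From each related list up to 4 called genes with the largest change were named, with a few fixed genes of the pathway (such as IRF1 and CMTM6); others are said to be named after their values were seen, and some items of the lists are not reported here. Alternatives were 2 scalings, 2 pseudocounts (0.1 and 0.5), 2 filters, limma-voom on recovered reads, the replicate number as a block, GC correction with and without that block, and each library left out.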

Additional observations from a re-analysis of the deposited data

How the results depend on the processing

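With the GC correction 2584 genes were lower, and 2333 with the correction and the replicate number as a block. With 1 library left out, between 2168 and 3068 genes were higher and between 2462 and 3763 lower, the lowest counts being those without shSCR replicate 2. Of the 7 tested members, GC correction called 4 higher and 1 lower, and with the replicate block as well 3 higher and 1 lower. Limma-voom on recovered reads called 2 higher (CD274 and B2M), and leaving out a library 0 to 1 higher (0 without shSCR replicate 2). Among the related lists, where 14 genes were higher, 7 to 12 were without 1 library (7 without shSCR replicate 2). HLA-E (0.32), TAPBP (0.375) and NLRC5 (0.346) reversed under GC correction, with or without the replicate block, as did HIP1R (0.365). CD274 was at 0.20 and not called under both, and ran from 0.41 to 0.565 without 1 library. TAP2 was called at 0.40 under GC correction. B2M was called at 0.416 with limma-voom, on rounded reads that its FPKM values do not place on whole numbers, and ran from 0.13 to 0.45 without 1 library. The cause of these changes was not tested. Of 182 values over 13 results and 14 alternatives, 158 kept their direction and side of the threshold, or stayed within 1.5 times the count. Across 12455 genes the differences between replicates of the 2 groups had a Pearson r of 0.0291. The replicate numbers thus carried little shared difference, but this value cannot tell whether libraries were prepared in pairs. The replicate block alone gave 3380 higher and 3831 lower genes and changed no call among the members. Among other named genes it ended the call of PSMB9 (adjusted p = 0.082) and called ERAP1 (0.0398), by limma. With 2 libraries per group and 29 to 255 reads for TAP1, and 1 to 22 for HLA-B and HLA-C, small changes of these genes may have been missed. No detection limit was computed.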
